A study of Mus musculus with 5 samples.

Results

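Sarcoma cells with a high level of Nefl, the gene for neurofilament light, were compared with sarcoma cells of the same tumours that held 0 or 1 Nefl molecule. The cells came from 4 droplet-based single-cell RNA libraries, and both sides were chosen by the Nefl count itself. A cell counted as a sarcoma cell when it held 2 or more unique molecular identifiers (UMIs, each standing for 1 captured transcript) of Gchfr, 0 of Smarcb1, fewer than 2 of Ddah1, Wisp1, C1qtnf7 and Fbn2 together, under 5 of Rgs5 per 10000 UMIs and at least 10000 UMIs in all. Barcodes below 500 genes or above 10% mitochondrial UMIs had been removed first. Of 39930 barcodes in the series 37519 were kept, 16179 were sarcoma cells by this rule, and 3647 of those held 5 or more Nefl UMIs per 10000 and are called Nefl-high. A further 9184 cells held 0 or 1 Nefl UMI and are called Nefl-low, since 429, 497, 241 and 235 of them in sarcomas 1 to 4 hold 1 Nefl UMI and the rest need not lack the gene's RNA. The 3348 cells in between entered no test.

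All 4 sarcoma libraries came from C57BL/6J mice of the genotype Hic1CreERT2/CreERT2;Rosa26LSLtdTomato/LSLtdTomato;Smarcb1FL/FL. Hic1 drives a tamoxifen-activated Cre recombinase in mesenchymal progenitors, Cre switches on the red reporter tdTomato, and both copies of Smarcb1, which encodes a subunit at the core of the SWI/SNF remodeller of chromatin, are floxed. Cre can act only in cells that express Hic1, and their descendants inherit the change. Both sides of every comparison share all of these alleles, the tamoxifen course (2.5 mg in 100 µL of oil daily over 5 days from an age of 8 weeks, followed by 10 days of washout) and the sort. The tumours grew at the shoulder (sarcoma 1), head (sarcoma 2), head/ear (sarcoma 3) and hip (sarcoma 4). A muscle library from mice with unfloxed Smarcb1 and 1 reporter copy (Hic1CreERT2/CreERT2;Rosa26LSLtdTomato/+) served only as background for Nefl. No label states whether each tumour came from its own animal. A p-value here reflects only how the difference between the sides varied over these libraries, with counting error, and that variation may be technical.

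Neurofilaments are intermediate filaments of neurons that set the calibre of axons. They are assembled from light, medium and heavy chains encoded by Nefl, Nefm and Nefh, often joined by alpha-internexin (Ina) or peripherin (Prph). Outside neurons these genes are normally silent or weak, and the light chain is needed for the other chains to form filaments.

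Nefl-high cells made up 45.3% of sarcoma cells in sarcoma 1 (95% exact binomial interval 43.9 to 46.7), 12.4% in sarcoma 2 (11.6 to 13.2), 19.2% in sarcoma 3 (17.7 to 20.8) and 9.15% in sarcoma 4 (8.13 to 10.3). These shares rested on 2154, 738, 488 and 267 cells, and the Nefl-low side on 1711, 4039, 1390 and 2044. Every library therefore passed the minimum of 50 cells on both sides. Intervals cover counting error only. In the summed counts Nefl lay at 2299, 1151, 1285 and 1033 UMIs per 1000000 (CPM) in Nefl-high cells of sarcomas 1 to 4 and at 10.2, 4.17, 7.20 and 3.60 CPM in Nefl-low cells. This gap follows from the rule and is a description. Just inside the threshold, cells with 5 to under 6 Nefl UMIs per 10000 numbered 126, 106, 74 and 47, and just outside it, cells with 4 to under 5 numbered 120, 125, 74 and 65, so the threshold cuts a continuous range.

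**Figure D1:**
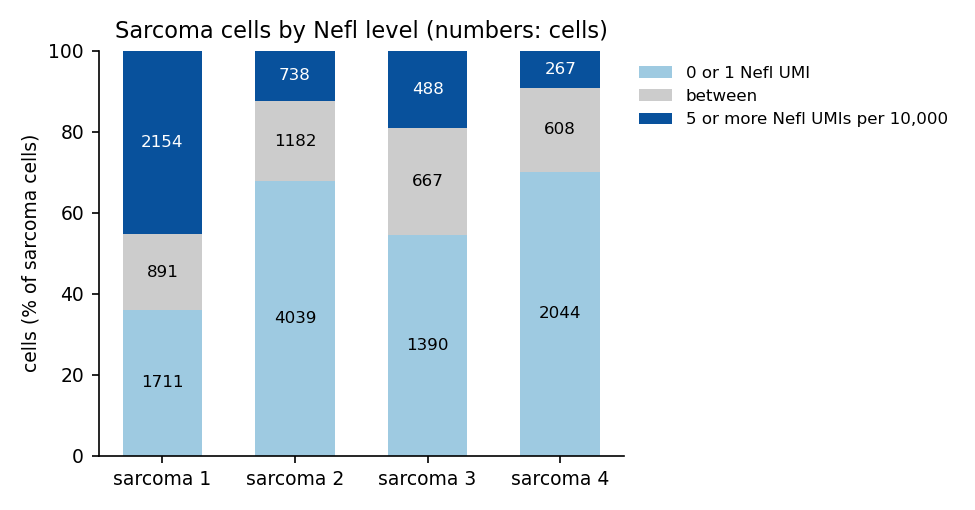
Sarcoma cells of each library (x axis) split by Nefl level, as a percentage of the library's sarcoma cells (y axis), with cell numbers in the bars. The Nefl-high share runs from 9.15% in sarcoma 4 to 45.3% in sarcoma 1.

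As a background, Nefl was also counted in cells that the rule should exclude, with 0 Gchfr UMIs and 1 or more Smarcb1 UMIs. In muscle 2 of 1519 such cells held a Nefl UMI (0.132%, median depth 12246 UMIs). In sarcomas 1 to 4 the share was 30.9%, 3.12%, 10.95% and 19.4% of 181, 128, 1187 and 31 cells, at median depths of 18529, 22279, 21066 and 22494 UMIs. On the Nefl-low side 25.1%, 12.3%, 17.3% and 11.5% of cells held their 1 UMI. The rule capped that side at 1 Nefl UMI and the background cells had no cap, so these shares cannot be ranked against each other. At 5 or more per 10000, only 1.66%, 0%, 0.674% and 3.23% of the background cells of sarcomas 1 to 4 qualified.

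The sides differed in depth and make-up. The median Nefl-high cell held 31112, 32996, 25866 and 39827 UMIs in sarcomas 1 to 4 and the median Nefl-low cell 23047, 27297, 21677 and 30502. Transcripts of ribosomal proteins took a median 20.6%, 23.7%, 14.7% and 14.2% of UMIs in Nefl-high cells and 18.4%, 22.4%, 13.5% and 11.8% in Nefl-low cells. Both measures were higher on the Nefl-high side in 4 of 4 libraries. The low side was set by an absolute Nefl count and the high side by a rate per total UMIs. A cell with fewer UMIs therefore fell more readily on the low side, and part of the gap in depth can follow from the rule. The size of that part was not tested. Clusters made within each library without the rule's genes also differed in their share of Nefl-high cells, counting clusters of 50 or more cells, from 9.40% to 87.3% over 10 clusters of sarcoma 1, 1.25% to 43.2% over 12 of sarcoma 2, 1.69% to 47.4% over 12 of sarcoma 3 and 0% to 28% over 14 of sarcoma 4. For this reason the gene groups below are also counted in cells matched on total UMIs in bins of 5000 UMIs, and in cells matched on cluster, which was added after the data were seen. Matching on cluster also removes part of any true difference, because the clusters were built from these genes.

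Gchfr, which the rule used, and the genes of the mouse model had small or mixed differences between the sides. Gchfr, the feedback regulator of GTP cyclohydrolase, lay at 559, 1697, 701 and 399 CPM in Nefl-high and 557, 1638, 680 and 421 in Nefl-low cells. The reporter tdTomato lay at 663, 386, 1135 and 280 CPM against 757, 324, 1247 and 266, higher in 2 libraries and lower in the other two. Hic1, which drives the Cre, lay at 26.2, 35.5, 27.3 and 0.810 CPM against 22.4, 25.7, 28.2 and 0.905. Cdkn2a, which encodes the cell-cycle inhibitors p16 and p19, lay at 222, 85.8, 129 and 130 CPM against 151, 76.5, 162 and 110. The labels call the sorted cells mesenchymal progenitors. Of their markers, the receptor gene Pdgfra was present at 178, 233, 323 and 14.6 CPM in Nefl-high and 235, 219, 319 and 13.5 CPM in Nefl-low cells, so both sides of sarcoma 4 were low for it.

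The main comparison asked which other genes differ between the sides, with counts summed per library and side and the library as a term of the model. edgeR's quasi-likelihood test called 0 of 13494 genes (the genes of the rule left out) at an adjusted p of 0.05 (0.0%), with 661 genes higher and 791 lower at an unadjusted p under 0.05. Its smallest adjusted p was 0.0874, for Dapk2, which encodes a death-associated protein kinase and lay at 1.04, 5.01, 6.89 and 0.180 CPM in Nefl-high against 4.97, 24.8, 26.7 and 0.552 CPM in Nefl-low cells. limma-voom called 1 gene (Adgrl4, 1947 at an unadjusted p under 0.05). DESeq2 called 175 genes higher in Nefl-high cells (1.34% of 13056) and 205 lower (1.57%), with 1654 at an unadjusted p under 0.05. Of these DESeq2 calls, 160 of 175 and 198 of 205 had the same direction in all 4 libraries. The fit left 3 residual degrees of freedom. Over all genes tested, 1104 were higher in all 4 libraries (8.18%) and 1684 lower in all 4 (12.5%), and these shares are the background for every list below. Like the list counts, they use CPM without TMM scaling, the scaling of the main fit. With it 1362 genes were higher and 1505 lower, so the lean toward lower genes depended on scaling. Without it, of 4459 genes with at least 20 CPM on the higher side in each library, 555 were higher and 564 lower. The higher share was thus larger among abundant genes than over all genes, which bears on lists of abundant genes. The median gene had a log2 fold change of −0.01.

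Nefm, which encodes the medium chain that pairs with the light chain, had a larger gap in its least affected library than any other gene of at least 20 CPM. It lies on the minus strand of mouse chromosome 14 from 68082590 to 68124846 (GRCm38), a span that holds Nefl on the plus strand from 68083863 to 68089095. Nefm lay at 208, 88.9, 107 and 206 CPM in Nefl-high cells and at 2.51, 1.29, 10.4 and 2.10 CPM in Nefl-low cells of sarcomas 1 to 4 (153 ± 63.3 and 4.07 ± 4.23, SD, n = 4). The 2 sides did not overlap, and Nefm was the only gene higher by 1 or more on the log2 scale in each of the 4 libraries. The fold was 82.8, 68.9, 10.4 and 98.1, smallest in sarcoma 3, where Nefl-low cells held the most Nefm. Its log2 fold change of 5.67 ± 0.70 (SE) had an edgeR adjusted p of 0.384 and a DESeq2 adjusted p of 1.3e-21. Without sarcoma 3 the value was 6.35 (edgeR adjusted p = 0.00673). In cells matched on total UMIs it was 5.56 (edgeR adjusted p = 0.25) and in cells matched on cluster 4.70 (edgeR adjusted p = 0.102).

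At the same 10000 UMIs per cell, 60.03%, 38.8%, 46.5% and 62.9% of Nefl-high cells held a Nefm UMI, against 1.87%, 1.06%, 7.48% and 1.57% of Nefl-low cells. Here the sides stayed as chosen before thinning. Unthinned, the shares were 78.3%, 63.96%, 64.96% and 89.9% against 5.14%, 2.30%, 13.5% and 4.16%. In the Smarcb1-positive cells without Gchfr the unthinned shares were 8.29%, 0%, 2.95% and 6.45%. Nefl-low cells lay above these shares in sarcomas 2 and 3 and below them in sarcomas 1 and 4, but only they had been capped on Nefl. The share in sarcoma 4 came from 31 cells that held 72 Nefm UMIs in all. A Nefl-high cell was thus more often Nefm-positive than a Nefl-low cell in each library, while many Nefl-high cells gave no Nefm UMI at this depth. Per 100 Nefl UMIs, Nefl-high cells held 9.04, 7.73, 8.36 and 19.9 Nefm UMIs, so the ratio of the 2 RNAs was highest in sarcoma 4. Protein was not measured.

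**Figure D2:**
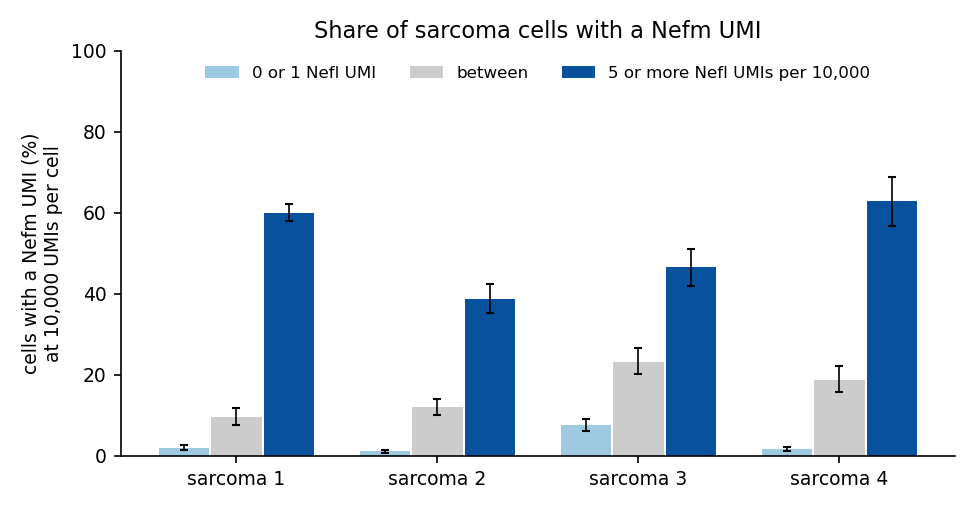
Share of cells with a Nefm UMI after each cell was thinned to 10000 UMIs (y axis, %), by library (x axis) and Nefl level before thinning. Error bars are 95% exact binomial intervals. Nefl-high cells lie between 38.8% and 62.9% and Nefl-low cells between 1.06% and 7.48%.

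Nefm also varied with Nefl inside the Nefl-high side. In cells with 0 Nefl UMIs it lay at 1.86, 0.846, 8.15 and 1.74 CPM in sarcomas 1 to 4. In cells with 5 to under 10 Nefl UMIs per 10000 it reached 50.2, 51.9, 71.7 and 137 CPM, and in cells with 10 to under 30 it reached 155, 111, 126 and 309 CPM. In sarcomas 1, 2 and 3 the cells with 30 or more held 450, 633 and 299 CPM, from 536, 21 and 21 cells. The level was higher in each step than in the one before in every library. One limit bears on these values. In the GENCODE annotation the last exon of transcript Nefm-202 and the first exon of Nefl-201 share 1108 bases, from 68083863 to 68084970, on opposite strands. Whether the authors' counting used strand is not given in the sources used here, so a part of the reads of 1 gene could have been counted for the other, and its size was not tested.

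The other partners of neurofilament light had no such gap in all libraries. Nefh, the heavy chain, held at most 0.336 CPM on either side and was too low to test, as was Ina, which reached 3.24 CPM in Nefl-high cells of sarcoma 4 (0.966 in Nefl-low cells) and at most 0.119 CPM elsewhere. Prph lay at 0.236, 0.523, 0.815 and 0.360 CPM against 0.166, 2.50, 1.13 and 0.951. Nes, which encodes nestin, an intermediate filament of progenitor cells, lay at 122, 12.9, 6.74 and 6.48 CPM against 54.7, 21.7, 5.85 and 9.13, higher in sarcomas 1 and 3 and lower in sarcomas 2 and 4. Of 4 tested members of this list besides Nefl, only Nefm was higher in all 4 libraries and none was lower. Vim, the main intermediate filament of mesenchymal cells, lay at 13446, 9923, 13933 and 1465 CPM against 11473, 7868, 11370 and 1527. The nuclear lamin gene Lmna was higher in all 4 libraries, at 826, 713, 1179 and 684 CPM against 735, 474, 1116 and 607 (log2 fold change of 0.26 ± 0.10, SE, edgeR adjusted p = 0.462).

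Nefl is bracketed by few measured genes. Of 7 tested genes within 1 Mb, 4 were higher in Nefl-high cells of all 4 libraries and none was lower, against 8.18% of all genes. They were Nefm, Dock5, Cdca2 and Stc1. Dock5, which encodes an activator of the GTPase Rac and lies on the minus strand from 67752135 to 67933442, lay at 9.96, 21.7, 47.3 and 109 CPM in Nefl-high and 5.47, 15.6, 33.9 and 53.1 CPM in Nefl-low cells (log2 fold change of 0.73 ± 0.11, SE, edgeR adjusted p = 0.384, DESeq2 adjusted p = 4.31e-05). It stayed at 0.65 when cells were matched on total UMIs and at 0.64 when matched on cluster. Stc1, the gene of the secreted glycoprotein stanniocalcin, lay at 34.6, 0.261, 2.00 and 1.35 CPM against 17.8, 0.0587, 1.08 and 0.0920. Cdca2, a mitotic gene, lay at 6.21, 6.35, 5.04 and 7.83 CPM against 5.40, 4.81, 4.39 and 4.80, and its difference was −0.09 on the log2 scale in cells matched on total UMIs. Ebf2, Kctd9 and Gnrh1 had mixed directions. Chromosome 14 as a whole did not stand out, with 8.86% of its 440 tested genes higher in all 4 libraries and 10.9% lower.

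Genes with the largest gap shared by all libraries, at 20 CPM or more on the higher side in each, are shown by name, 12 on each side, since no gene passed the main test. After Nefm, the higher genes had modest gaps. Cenpp, which encodes a centromere protein, lay at 41.9, 31.6, 101 and 39.8 CPM in Nefl-high and 18.6, 18.2, 59.6 and 19.1 CPM in Nefl-low cells (log2 fold change of 0.96 ± 0.09, SE, edgeR adjusted p = 0.222, DESeq2 adjusted p = 8.33e-16). Cenpp spans a long stretch that overlaps Ippk, Ecm2, Aspn, Omd and Ogn on the other strand. Whether their exons share bases, so that reads could be miscounted without strand, was not tested. Grb10, an imprinted adaptor of insulin and growth-factor receptors, lay at 24.6, 53.3, 84.1 and 35.5 CPM against 13.8, 28.8, 45.1 and 28.0 (0.76 ± 0.13, SE, edgeR adjusted p = 0.384).

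The remaining higher genes encode parts of the actin cytoskeleton (Actg1, Tpm1), RNA and ribosome factors (Hnrnpa1, Nob1), DNA replication and repair proteins (Mcm6, Parp1), the peroxidase Prdx2, the centromere protein Cenpv and the transcriptional inhibitor Id2. Actg1, the gene of cytoplasmic gamma-actin, lay at 2185, 1523, 2940 and 2709 CPM against 1771, 1133, 2364 and 2014. Hnrnpa1, a splicing factor, lay at 492, 438, 277 and 330 CPM against 379, 349, 230 and 240 (0.37 ± 0.05, SE, DESeq2 adjusted p = 4.12e-15). Tpm1, a tropomyosin gene, lay at 264, 96.0, 273 and 220 CPM against 115, 78.0, 214 and 178, with most of its gap in sarcoma 1. The log2 fold changes of these 9 genes ran from 0.34 for Mcm6 to 0.55 for Tpm1, and their edgeR adjusted p from 0.384 to 0.437. Prdx2 overlaps Junb, which went the other way, on the opposite strand.

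The lower genes had wider gaps. Nbl1, a secreted antagonist of bone morphogenetic proteins, lay at 44.4, 11.1, 123 and 85.3 CPM in Nefl-high and 143, 38.8, 269 and 285 CPM in Nefl-low cells (log2 fold change of −1.58 ± 0.14, SE, edgeR adjusted p = 0.222, DESeq2 adjusted p = 6.2e-17). Sdc4, the cell-surface proteoglycan syndecan-4, lay at 77.3, 8.93, 60.7 and 64.3 CPM against 186, 23.1, 114 and 138 (−1.15 ± 0.09, SE, edgeR adjusted p = 0.193, DESeq2 adjusted p = 5.1e-18). Igfbp6, which binds insulin-like growth factor 2, lay at 97.4, 15.2, 61.3 and 5399 CPM against 462, 40.4, 266 and 8094 (−1.58 ± 0.30, SE, edgeR adjusted p = 0.384). In both Nbl1 and Sdc4 the low side lay above the high side within every library, while the ranges over libraries overlapped.

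Fth1, the ferritin heavy chain that stores iron, lay at 1351, 874, 1413 and 3127 CPM against 2316, 1181, 2756 and 12067, with the widest gap in sarcoma 4. Sulf1, a sulfatase that trims heparan sulfate, lay at 7.36, 95.3, 15.6 and 53.2 CPM against 25.9, 211, 29.2 and 90.1. Cdh13, a cadherin without a cytoplasmic domain, lay at 14.5, 1.57, 1.26 and 222 CPM against 23.1, 23.6, 21.3 and 429, so its gap was wide in sarcomas 2 and 3 and narrow in sarcomas 1 and 4. The other lower genes were Ccl2, Cebpb, the membrane protein gene Tm4sf1, the nuclear receptor gene Rora, Baiap2, which links small GTPases to actin, and the interferon-induced Ifi27l2a. The 4 genes lower by at least 1 on the log2 scale in each library were Nbl1 and, named after their values were seen, the chemokine-scavenging receptor gene Ackr3, the water channel gene Aqp5 and the receptor kinase gene Grk5. Ackr3 lay at 20.4, 3.10, 9.78 and 1.53 CPM against 46.0, 19.8, 27.9 and 5.37.

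**Figure D3:**
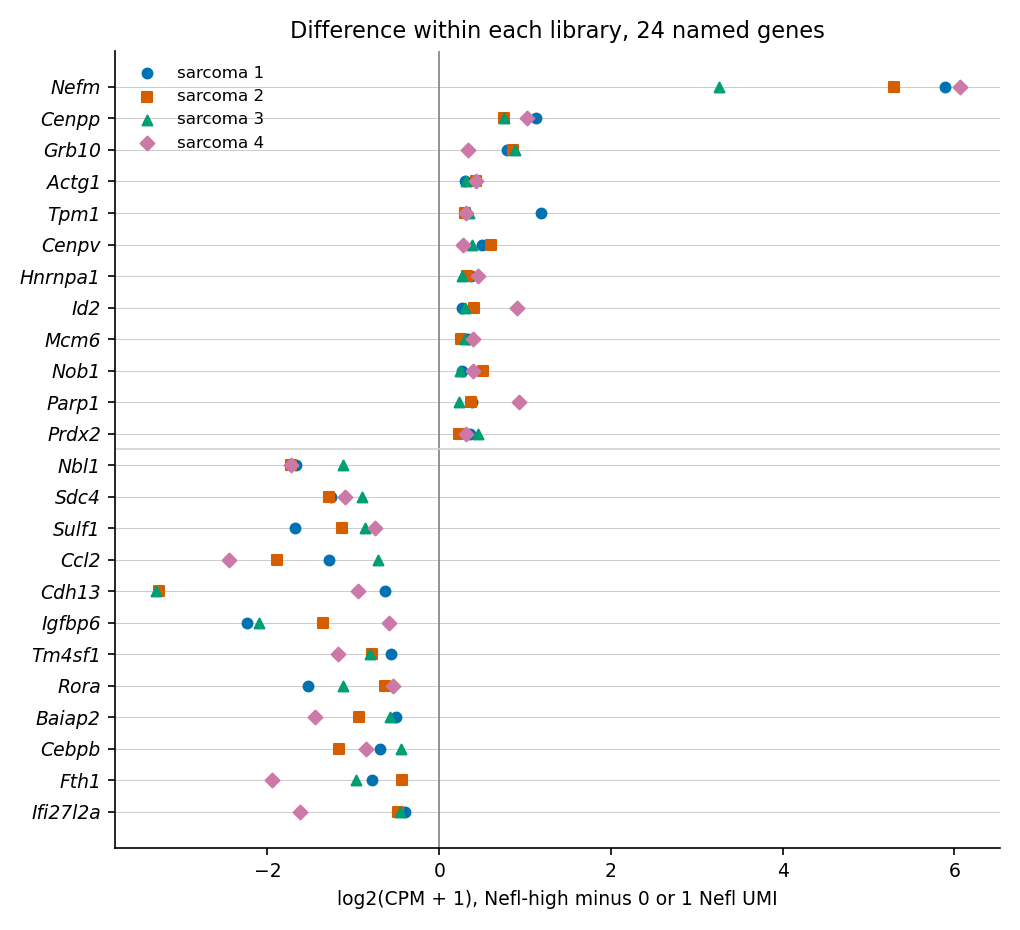
Difference in log2(CPM + 1) between Nefl-high and Nefl-low cells (x axis) within each of the 4 sarcoma libraries (symbols) for the 24 genes with the largest gap shared by all libraries among those with at least 20 CPM on the higher side in each library (y axis, 12 higher and 12 lower). Nefm stands apart at 3.25 to 6.06, and the other 11 higher genes lie between 0.23 and 1.19.

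Several of these genes also differed between steps of Nefl. Nbl1 went from 142, 40.1, 277 and 283 CPM at 0 Nefl UMIs to 40.5, 10.0, 112 and 99.8 CPM at 10 to under 30 per 10000. Igfbp6 went from 478, 40.04, 278 and 8136 CPM to 89.1, 10.6, 54.99 and 4489 over the same range, and Fth1 from 2306, 1197, 2840 and 12383 to 1377, 829, 1474 and 3179. Cells between the 2 sides lay between them for all 3 genes in each library except Igfbp6 in sarcoma 2, where the cells between held 13.2 CPM and the Nefl-high side 15.2. Hnrnpa1 had its highest value at 5 to under 10 per 10000 in sarcoma 3 (288 CPM) and lower values in cells with more Nefl (269 and 243 CPM).

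**Figure D4:**
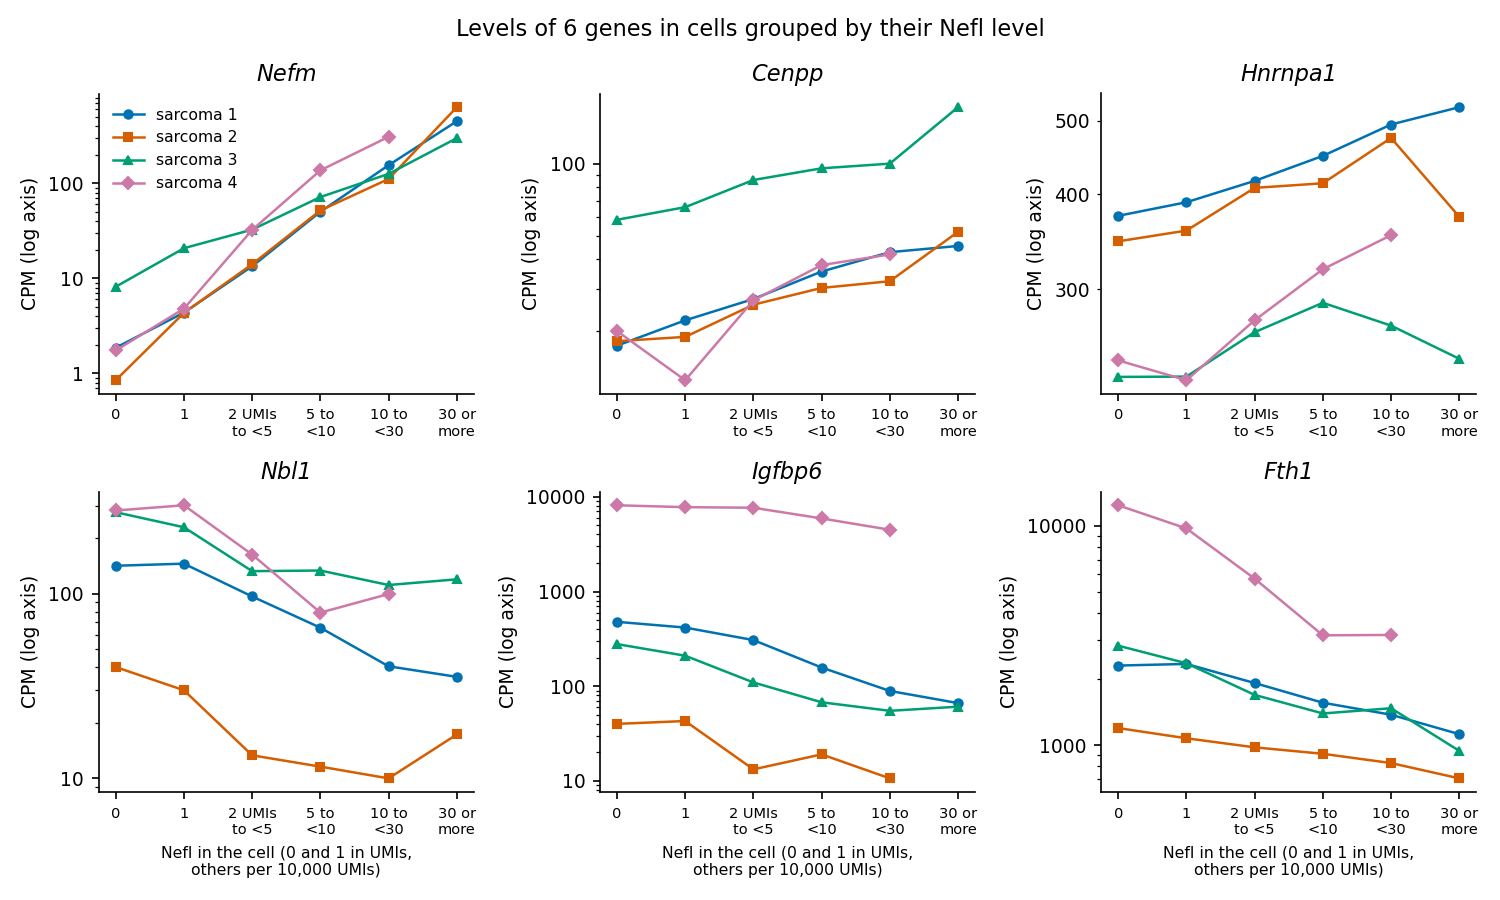
Levels of 6 genes (y axes, CPM, log scale) in sarcoma cells grouped by their own Nefl level (x axis), 1 line per library. Steps with fewer than 20 cells and a step at 0 CPM (Igfbp6 in 21 cells of sarcoma 2) are left out. Nefm and Cenpp are higher and Nbl1, Igfbp6 and Fth1 lower at 10 to under 30 Nefl UMIs per 10000 than at 0 in each library.

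Neuronal genes beyond the filaments were divided. Of 23 tested microtubule and growth cone genes, 3 were higher in all 4 libraries (Tubb3, Gap43 and Marcks) and 1 was lower (Dclk1) (median log2 fold change 0.17 against −0.01 over all genes). Tubb3, the neuronal beta-tubulin gene, lay at 134, 45.3, 12.7 and 10.2 CPM in Nefl-high and 106, 18.4, 2.03 and 1.90 CPM in Nefl-low cells (log2 fold change of 1.58 ± 0.43, SE, edgeR adjusted p = 0.399, DESeq2 adjusted p = 0.00761). Gap43, a growth cone protein gene, lay at 486, 192, 4.37 and 2.07 CPM against 121, 157, 1.49 and 1.26 (1.17 ± 0.34, SE, DESeq2 adjusted p = 0.0315). In cells matched on total UMIs 4 of the 23 were higher and 0 lower, and matched on cluster 2 were higher and 2 lower. Stmn2, another growth cone gene, lay at 32.8, 335, 297 and 488 CPM against 11.2, 475, 356 and 105, higher in sarcomas 1 and 4 and lower in sarcomas 2 and 3.

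Of 13 tested neuronal transcription factors and their repressors, 1 was higher in all libraries (Sox2, at under 1 CPM in sarcomas 1 and 2) and 1 was lower. The lower gene was Hes1, a Notch target that represses neuronal differentiation genes, at 88.7, 27.7, 155 and 649 CPM against 190, 65.4, 311 and 834 (−0.91 ± 0.15, SE, edgeR adjusted p = 0.384, DESeq2 adjusted p = 6.8e-05). Of 24 axon guidance genes 6 were lower in all libraries and none was higher, with Sema3c at 108, 65.6, 82.7 and 0.180 CPM against 213, 172, 118 and 0.874. Of 12 neurotrophin and receptor genes 3 were lower and none was higher, and of 15 prohormone and granule genes 1 was higher and 1 lower. Of 4 tested Schwann cell and glial markers 1 was lower (Pmp22). In cells matched on total UMIs, 0 axon guidance genes were higher and 4 lower, 0 neurotrophin genes were higher and 1 lower, 2 granule genes were higher and 0 lower, and 1 transcription factor was higher and 1 lower. Matched on cluster these counts were 2 and 5, 0 and 2, 1 and 0, and 0 and 1. The shares of the neuronal lists that were higher in all libraries lay between 0% and 25%, the latter from Nefm alone.

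Where genes of growth had 1 direction in all libraries it was mostly higher and by small amounts, and the counts of cell cycle genes depended on which cells were compared. Of 27 tested MYC activity and ribosome assembly genes, 7 were higher in all 4 libraries (25.9%, background 8.18%) and none was lower (median log2 fold change 0.18). Among genes of at least 20 CPM, 555 of 4459 were higher, so the background of 8.18% is low for abundant genes. The nucleolar gene Npm1 lay at 1863, 1524, 1127 and 1202 CPM against 1491, 1386, 979 and 909 (0.28 ± 0.05, SE, edgeR adjusted p = 0.384, DESeq2 adjusted p = 0.000353). The nuclear transport gene Ran lay at 867, 806, 572 and 774 CPM against 747, 745, 556 and 603. Matched on total UMIs 5 of these 27 were higher in all libraries, and matched on cluster 6 were higher and 1 lower.

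Of 24 S phase genes, 8 were higher in all libraries and none was lower, among them the replication helicase genes Mcm3 (39.6, 33.3, 28.4 and 31.4 CPM against 29.2, 30.4, 23.98 and 21.3) and Mcm5. Rrm2, the ribonucleotide reductase gene and the most abundant of the list, was mixed, at 52.4, 50.9, 47.0 and 293 CPM against 90.0, 46.1, 51.4 and 178. With each cell thinned to 10000 UMIs 8 were higher and 0 lower, and in cells with under 10 G2/M UMIs per 10000 these counts were 10 and 0. For all list counts in thinned cells the sides were chosen again by the thinned Nefl count. In sarcoma 1 this gave 2188 Nefl-high and 2078 Nefl-low cells. Matched on total UMIs 0 were higher and 6 lower, and matched on cluster 2 were higher and 5 lower. Of 27 G2/M genes 0 were higher and 0 lower in all libraries, while 3 were higher and 0 lower in thinned cells, 6 higher and 1 lower in cells with under 10 G2/M UMIs per 10000, 0 higher and 11 lower when matched on total UMIs, and 0 higher and 9 lower when matched on cluster. The proliferation marker Mki67 lay at 37.4, 63.0, 16.1 and 13.8 CPM against 41.5, 44.1, 17.9 and 14.8. Of 26 regulators of the RB and p53 pathways, which include inhibitors of division, 6 were higher and 3 lower. Matched on total UMIs these counts were 6 and 1, and matched on cluster 5 and 4. The higher members, named after their values were seen, were Cdkn1c, Ccne2, Cdk4, Mdm2, Trp53 and Bax. DESeq2 called Cdkn1c and Trp53 higher and no other member. The lower members were Cdkn1b, Rbl2 and Sesn1. The kinase gene Cdk4 lay at 210, 119, 212 and 246 CPM against 168, 116, 165 and 197. The cyclin gene Ccnd1 was mixed, at 1190, 1145, 589 and 58.8 CPM against 927, 740, 672 and 20.8, and thus lower in sarcoma 3.

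Genes of inflammation and the immediate-early response were more often lower in all libraries than genes in general. Of 16 tested chemokines and inflammatory cytokines, 9 were lower in all 4 libraries (56.2%, background 12.5%) and none was higher (median log2 fold change −0.97). DESeq2 called 6 of them lower. Ccl2, which attracts monocytes, lay at 793, 157, 92.4 and 38.0 CPM in Nefl-high and 1926, 586, 152 and 211 CPM in Nefl-low cells (−1.58 ± 0.32, SE, edgeR adjusted p = 0.384, DESeq2 adjusted p = 0.00038). Ptgs2, which encodes the prostaglandin-forming enzyme cyclooxygenase-2, lay at 30.9, 83.4, 13.6 and 45.2 CPM against 76.7, 185, 27.9 and 51.9. Nfkbia, an inhibitor of NF-kappaB, was higher in sarcoma 1 (396 and 342 CPM) and lower in the others. Matched on total UMIs 7 of the 16 were lower and 1 higher, and matched on cluster 4 were lower and 1 higher, where the difference in Ccl2 was −0.45.

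Immediate-early and heat-shock genes respond to stress, including the dissociation of tissue. Of 22 tested, 11 were lower in all libraries and 1 was higher (median log2 fold change −0.33). Fos lay at 630, 581, 437 and 1349 CPM against 1073, 710, 687 and 1915 (−0.54 ± 0.09, SE, edgeR adjusted p = 0.384, DESeq2 adjusted p = 0.00113), Junb at 843, 695, 933 and 981 against 1308, 1040, 1120 and 1271, and the nuclear receptor gene Nr4a1 at 34.3, 62.0, 39.99 and 200 against 71.2, 133, 101 and 222. The constitutive chaperone gene Hspa8 was the higher gene. Matched on total UMIs 7 were lower, and matched on cluster 11 were lower. Of 15 interferon and MHC class I genes 6 were lower and none was higher (3 lower when matched on total UMIs, 6 when matched on cluster and 8 in thinned cells), with Ifitm3 at 1853, 2729, 867 and 944 CPM against 2094, 3291, 1730 and 1256. Haematopoietic markers summed to 2.43 to 19.8 CPM in Nefl-high and 5.61 to 21.9 CPM in Nefl-low cells, higher in Nefl-high cells in 1 of 4 libraries, and Ptprc, which defines leukocytes, held at most 0.179 CPM. Of 10 tested, 5 were lower in all libraries (50%, background 12.5%) and none was higher, with 4 lower when matched on total UMIs, 1 when matched on cluster and 2 in thinned cells. Cells with 0 UMIs of Ptprc, Cd53, Tyrobp, Pecam1, Cdh5, Rgs5 and Hbb-bs were also compared. There 81 of 81 named genes kept their direction and side of the threshold. The log2 fold change was 5.71 for Nefm, −1.70 for Ccl2 and −1.31 for Cd34. Cells holding only other haematopoietic markers stayed in, and their part was not tested.

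Progenitor and mesenchymal genes were lower or mixed. Of 14 tested progenitor markers 5 were lower in all libraries and none was higher (median log2 fold change −0.86), and the same numbers held when cells were matched on total UMIs or on cluster. Cd34, a surface sialomucin, lay at 26.3, 0.374, 37.8 and 15.7 CPM against 95.9, 1.30, 105 and 30.4 (−1.47 ± 0.17, SE, edgeR adjusted p = 0.333, DESeq2 adjusted p = 1.04e-08). Gsn, which encodes the actin-severing protein gelsolin, lay at 298, 1696, 4052 and 265 CPM against 1120, 2101, 8189 and 634. Matched on cluster these differences were −0.17 and −0.59. With a stricter rule of 5 or more Gchfr UMIs, added after the data were seen, they were −1.46 and −1.14. Dcn, the gene of the matrix proteoglycan decorin, had mixed directions, at 1390, 4010, 399 and 4.68 CPM against 1207, 3982, 709 and 21.7.

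Of 31 collagen and matrix genes 9 were lower and 1 higher in all libraries (8 and 3 matched on total UMIs, 3 and 3 matched on cluster), with the basement membrane gene Col4a1 at 78.8, 8.93, 19.997 and 422 CPM against 165, 25.9, 70.1 and 496 and the proteoglycan gene Bgn at 1.12, 4.11, 335 and 0.0900 against 2.23, 9.98, 867 and 0.153. The fibrillar collagen gene Col1a2 had mixed directions, at 1324, 2198, 4688 and 2161 CPM against 889, 2230, 4441 and 1593. Spp1, which encodes osteopontin, lay at 642, 44.3, 8.74 and 236 CPM against 367, 181, 33.9 and 1012, higher in sarcoma 1 and lower in sarcomas 2 to 4. Of 18 mesenchymal transcription factors 6 were lower and none was higher (6 lower and 1 higher matched on total UMIs, 3 lower and 0 higher matched on cluster), among them Snai2 at 68.1, 22.1, 64.5 and 0.990 CPM against 103, 61.4, 103 and 3.27, while Twist1 lay at 399, 143, 738 and 178 against 236, 148, 770 and 215. Of 5 tested adipogenic genes 3 were lower (Cebpa, Cebpb and Apoe), as they were in number when matched on total UMIs, against 2 when matched on cluster. Cebpb, a transcription factor of fat and inflammatory cells, lay at 526, 268, 445 and 106 CPM against 848, 602, 608 and 192.

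**Figure D5:**
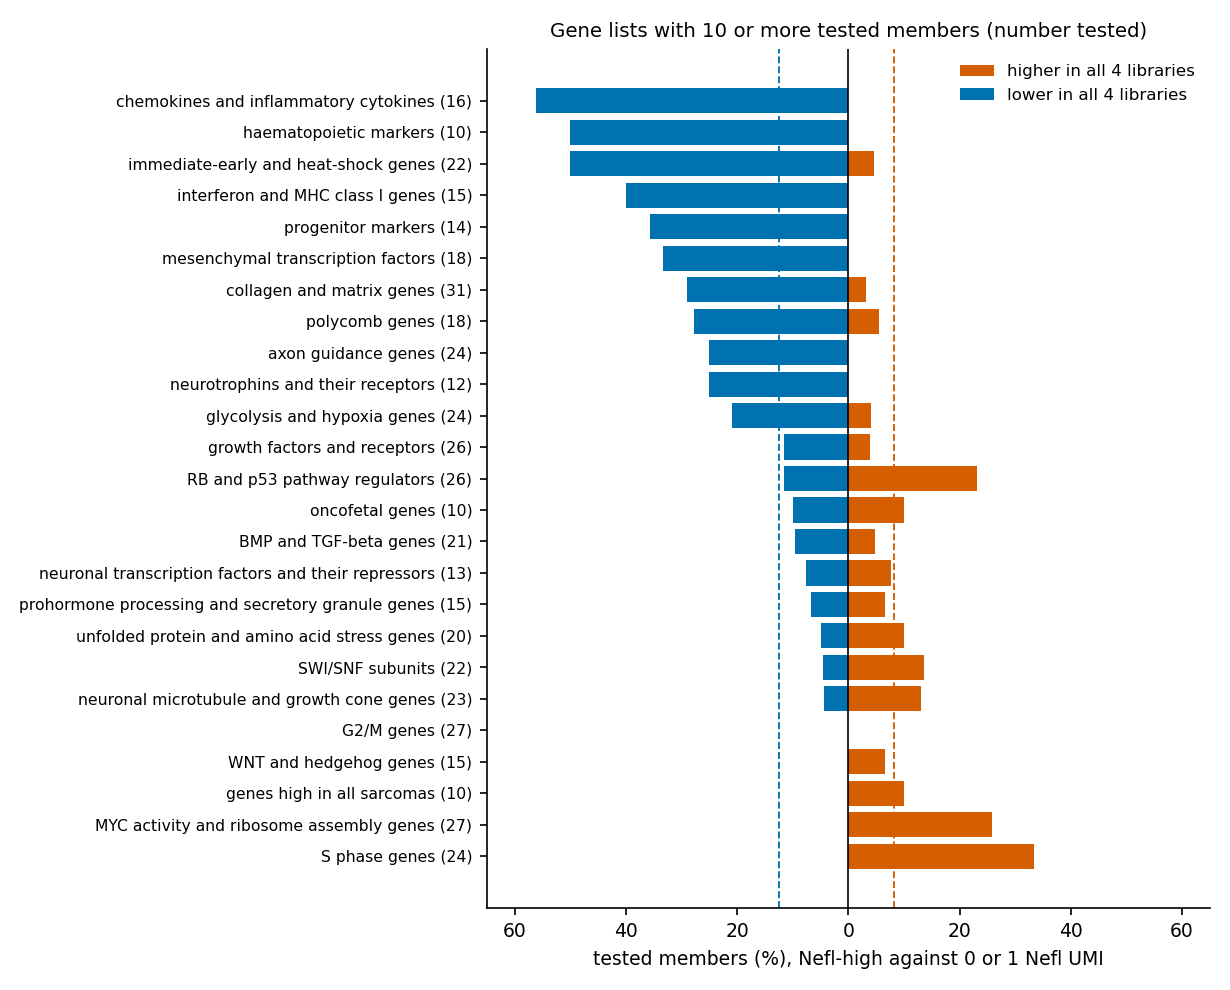
Share of tested members of each gene list (y axis, number tested in brackets) that were higher (right) or lower (left) in Nefl-high than in Nefl-low cells of all 4 libraries (x axis, %). Dashed lines mark the shares over all genes tested, 8.18% higher and 12.5% lower.

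Endothelial markers are given because vessel cells could enter the sort. The summed endothelial markers were higher in Nefl-high cells in 4 of 4 libraries, at 391, 534, 27.3 and 7.29 CPM against 167, 257, 13.9 and 6.09, with Cldn5, a tight junction gene, making up most of the sum in sarcomas 1 and 2. Without cells holding a UMI of Pecam1, Cdh5 or the other genes left out above, 81 of 81 named genes kept their direction. That choice did not leave out cells by Cldn5, and the part of the remaining endothelial markers was not tested. Of 8 tested markers 1 was higher in all 4 libraries (12.5%, background 8.18%) and none was lower, the 1 being the receptor gene Kdr at 0.111, 3.10, 0.0741 and 2.70 CPM against 0, 1.66, 0 and 2.04. The direction of Kdr in sarcomas 1 and 3 rests on few UMIs, and the share of this list rests on Kdr alone. Cldn5 lay at 371, 527, 3.93 and 0 CPM against 103, 248, 0.239 and 0. The defining markers Pecam1 and Cdh5 were not higher in all libraries, with Pecam1 at 3.80, 0.187, 4.30 and 0.450 CPM against 3.91, 0.687, 3.05 and 0.353 and Cdh5 at 3.61, 0.0747, 14.5 and 0 against 46.7, 0.0419, 5.94 and 0. Selp, the adhesion molecule P-selectin, lay at 101 and 174 CPM against 56.9 and 63.1 in sarcomas 1 and 2 and under 1 CPM in sarcomas 3 and 4. The endothelial receptor gene Adgrl4, the only gene limma-voom called (adjusted p = 0.0146), lay at 11.96 and 58.4 CPM against 3.22 and 16.5 in sarcomas 1 and 2 and had 0 UMIs in sarcomas 3 and 4. Krt18, a keratin of epithelioid cells, lay at 24.1, 0, 97.7 and 0.360 CPM against 2.13, 0, 31.6 and 2.06.

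The size of these differences depended on which cells were compared. Matching on cluster left 56 of 81 named genes with a log2 fold change smaller by over 1.5 times (median ratio 0.531), and matching on total UMIs 13 of 82 (median ratio 0.872). Over all genes tested 976 were higher and 1562 lower in all 4 libraries when matched on cluster (7.23% and 11.6%), and 1033 and 1374 when matched on total UMIs (7.66% and 10.2%).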

How the data were processed

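Cells sorted from 4 sarcomas and 1 muscle were profiled by droplet-based 3′ single-cell RNA sequencing. The authors deposited raw UMI counts per gene and barcode, which the file headers credit to Cell Ranger 6.0.1 and the submitters' processing notes place on mm10; whether the counting used strand is not given in the sources used here. Of 28001 features 3 are transgenes and 121 share a symbol. Gene positions came from GENCODE M21 (GRCm38), matched by identifier for 27645 features.

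From these counts, sarcoma cells were chosen, split by Nefl, and summed per library and side. The sums were fitted with edgeR 4.0.16 (R 4.3.3) by the quasi-likelihood test with TMM scaling, a filter on low counts, and library and side as terms, with Benjamini-Hochberg adjustment. The replicate block is the library itself: both sides come from the same tumour, which pairs them by design. Differences within a library are on log2(CPM + 1), and CPM is UMIs per 1000000 UMIs of the summed cells. Alternatives used DESeq2 1.42.0, limma 3.58.1, RLE scaling, library totals alone, no filter, other cell choices, thinning and matching. Clusters came from scanpy 1.11.5 (Leiden, resolution 1.0) without the rule's genes. Scrublet called 0, 2, 142 and 0 barcodes in sarcomas 1 to 4, so it has not worked in 3 libraries, and doublets were not removed. The highest 6% of its scores held 10.4%, 4.88%, 5.12% and 8.99% of Nefl-high cells. Of Nefl-low cells they held 2.51%, 7.08%, 6.33% and 6.70%, so the sides were uneven, most of all in sarcoma 1. Without these cells 82 of 83 named genes kept direction and side of the threshold. At most 22 barcodes were shared by any 2 libraries. The code was tested on simulated data.

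Sums held 11112648 to 119296652 UMIs.

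Genes are named by this rule: with fewer than 5 genes past the threshold on a side, the 12 with the largest smallest gap over the 4 libraries, at 20 CPM or more on the higher side; then up to 4 members of each list by mean CPM, genes of the neurofilament and sarcoma set, and genes within 1 Mb of Nefl. Tubb3, Gap43, Marcks, Dclk1, Sox2, Mcm3, Mcm5, Cdk4, Nr4a1, Cd34, Ptgs2, Snai2, Bgn, Col4a1, Ptprc, Kdr, Selp, Adgrl4, Ackr3, Aqp5, Grk5 and Dapk2 were named after their values were seen. The cells and gene lists were chosen with earlier results of these data known.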

Additional observations from a re-analysis of the deposited data

Results flagged for a closer look

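For 10 of 84 genes looked at, the difference between Nefl-high and Nefl-low cells in 1 of the 4 libraries lay far from the other three by Dixon's criterion, which chance meets in about 1 of 20 groups of 4. Values are differences in log2(CPM + 1) within that library. In sarcoma 1 they were Tpm1 at 1.19, Spp1 at 0.80 and Pdgfra at −0.40, so Spp1 was higher there and lower in the other 3 libraries. In sarcoma 2 they were Mki67 at 0.51 and Cdk4 at 0.031. In sarcoma 3 they were Nbl1 at −1.12 and Dclk1 at −0.12, both nearer to 0 than in the other libraries. In sarcoma 4 they were Grb10 at 0.33, Hspa8 at 0.26 and Ifi27l2a at −1.62.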

How the results depend on the processing

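Over 1629 values of named genes under alternatives, 1522 kept direction and side of the threshold, 56 passed it only under the alternative and 51 reversed; the cause was not tested. The edgeR counts of 0 became 175 higher and 205 lower with DESeq2, 1 higher with limma-voom, 1 lower without the filter, 1 higher and 3 lower in cells with fewer than 2 G2/M UMIs (only 29, 15, 32 and 3 Nefl-high cells in sarcomas 1 to 4, under the minimum of 50) and 1 lower in cells with under 10 per 10000. Leaving out 1 library gave 0 to 1 higher and 0 lower, the 1 being Nefm without sarcoma 3. The log2 fold change of Nefm was 5.72 with DESeq2, 4.69 with fewer than 2 G2/M UMIs and 5.32 to 6.35 without 1 library. Without the replicate block that pairs both sides of a library, 0 genes were called and Nefm was 5.34, tdTomato −0.0499, Ebf2 0.56, Pecam1 0.14 and Dcn 0.0121.

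The other reversed log2 fold changes were mostly close to 0. With fewer than 2 G2/M UMIs they were Mcm6 −0.25, tdTomato −0.0543, Pdgfra 0.0149 and Lmna −0.12. Matched on total UMIs they were Mki67 −0.42, Rrm2 −0.36, Cdca2 −0.0879, Nes −0.12, Mcm5 −0.0200 and Gnrh1 0.0903. Matched on cluster they were tdTomato −0.0223, Mki67 −0.0935, Mcm3 −0.0505, Ebf2 0.33, Sox2 −0.0268 and Rrm2 −0.0638. Leaving out 1 library gave −0.0834 to 0.0718 for tdTomato, −0.13 to 0.11 for Mki67, −0.00517 to 0.22 for Kctd9, −0.36 to 0.35 for Nes, −0.0941 to 0.0800 for Pdgfra, −1.45 to 0.0419 for Ebf2, −0.49 to 0.23 for Gnrh1, −0.47 to 0.25 for Pecam1, −0.23 to 0.26 for Rrm2 and −0.12 to 0.24 for Twist1. Library totals alone gave tdTomato −0.000993 and Rrm2 −0.0117, and no filter −0.00837 and −0.0185. Under 10 G2/M UMIs per 10000 gave tdTomato −0.00131 and Rrm2 −0.0272. Thinned cells gave Mki67 −0.0148 and Rrm2 −0.0438, and a high side at 10 per 10000 gave Mki67 −0.13, Pdgfra 0.0265 and Rrm2 −0.11. With 5 or more Gchfr UMIs they were Mki67 −0.0623, Pdgfra 0.00662 and Rrm2 −0.0272. Mki67 was −0.0283 without the highest Scrublet scores, Ebf2 0.16 with limma-voom, Cdh5 0.0652 with DESeq2 and Rrm2 −0.0216 with the low side at 0 UMIs. Genes under about 1 CPM on a side rest on few UMIs.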

Other observations

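The remaining gene lists are given with their shares, against 8.18% of all genes tested higher and 12.5% lower in all 4 libraries. Of 24 tested glycolysis and hypoxia genes 1 was higher (4.17%) and 5 were lower (20.8%). These counts were 0 and 4 when matched on total UMIs and 1 and 2 when matched on cluster. Of 20 genes of the unfolded protein and amino acid stress response 2 were higher (10%) and 1 lower (5%). Of 26 growth factors and receptors 1 was higher (3.85%) and 3 lower (11.5%). Of 21 BMP and TGF-beta genes 1 was higher (4.76%) and 2 lower (9.52%), and of 15 WNT and hedgehog genes 1 was higher (6.67%) and 0 lower. Of 22 SWI/SNF subunits 3 were higher (13.6%) and 1 lower (4.55%). Of 18 polycomb genes, which oppose that remodelling complex, 1 was higher (5.56%) and 5 lower (27.8%). The polycomb counts were 1 and 1 when matched on total UMIs, 3 and 5 when matched on cluster and 2 and 5 in thinned cells. Of 7 tetrahydrobiopterin genes 0 were higher and 1 lower (14.3%), and of 10 oncofetal genes 1 was higher (10%) and 1 lower (10%). Of 10 genes known to be high in these sarcomas 1 was higher (10%) and 0 lower. Among other cell types, 1 of 6 mural (16.7%), 1 of 5 tenocyte (20%), 0 of 3 myogenic and 0 of 2 erythroid markers were lower in all libraries and none was higher. Of 8 keratin and epithelial junction genes 0 were higher and 0 lower, and of 8 other intermediate filament genes 1 was higher (12.5%) and 1 lower (12.5%).

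Per 100 Nefl UMIs, Nefl-low cells of sarcoma 3 held 144 Nefm UMIs and those of sarcomas 1, 2 and 4 held 24.7, 31.0 and 58.3. The low side was chosen for little Nefl, so these ratios are not comparable with those of the Nefl-high side.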
